A study of Mus musculus with 6 samples.

Results

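Hemoglobin genes and genes of red blood cells were followed in RNA of the mouse aorta. The set was chosen by name on counts in these libraries and held the alpha globin genes *Hba-a1* and *Hba-a2*, the beta globin genes *Hbb-bs* and *Hbb-bt*, and *Alas2*, *Slc4a1* and *Ahsp*. The balance between the alpha and beta globin copies was part of the choice, so the values of these genes are given below as a description without a test. Of the 7 named genes, 6 were found by their identifiers among the 18191 genes of the table, and *Ahsp* was not analysed here. The aortas came from male mice, in 3 WT libraries and 3 *Npr1+/-* libraries, which the labels number 1 to 3 for each genotype. The *Npr1+/-* animals have a disrupted copy of *Npr1*, made with CRISPR-Cas9, beside an intact copy. *Npr1* encodes the membrane receptor of atrial and brain natriuretic peptides, which relaxes vessels through cGMP. Neither a treatment nor the age and strain of these mice is stated in the sources used here. No label says which animal each library came from, so the spread between them may be partly technical.

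Hemoglobin binds oxygen in red cells and is built from alpha and beta globin chains, each holding a heme group. Erythroblasts of the bone marrow and spleen make the chains in balance, because unpaired alpha chains are unstable, and *Ahsp* encodes a chaperone that holds free alpha chains. *Alas2* encodes the erythroid enzyme of the opening step of heme synthesis, and *Slc4a1* encodes band 3, the anion exchanger that anchors the membrane skeleton of red cells. Young red cells that have lost their nucleus still hold globin mRNA for a short time in the circulation. Alpha globin has also been described in the endothelium of small arteries, where it limits the diffusion of nitric oxide.

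The total of estimated counts was 13510970, 15854447 and 16664343 for WT 1 to WT 3, and 14459805, 15964136 and 15316466 for *Npr1+/-* 1 to *Npr1+/-* 3, so 3 counts were worth 0.180 to 0.222 CPM, the counts scaled to library size. The abundance of *Npr1* was 112, 153 and 152 FPKM in WT and 70.4, 110 and 133 FPKM in *Npr1+/-* aortas, where FPKM is a level scaled for the length of the transcript and the size of the library. The genotypes overlapped for *Npr1*, with a log2 fold change of -0.41 (SE 0.27) and an adjusted p of 0.999 by the quasi-likelihood test of edgeR. *Acta2*, the actin of smooth muscle, lay between 2202 and 7113 FPKM in all 6 libraries, as a marker of the labelled tissue. The libraries numbered 1 stood apart from the others of their genotype in the genes described here, and values are therefore also given without them.

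On the assembly GRCm38.p6 of RefSeq, *Hba-a1* (NCBI gene 15122) lies at chr11:32283672-32284486 and *Hba-a2* (NCBI gene 110257) at chr11:32296492-32297310, both on the plus strand with 12005 bases between them. *Hbb-bt* (NCBI gene 101488143) lies at chr7:103812524-103813923 and *Hbb-bs* (NCBI gene 100503605) at chr7:103826523-103827928, both on the minus strand with 12599 bases between them. *Slc4a1* (NCBI gene 20533) lies at chr11:102348820-102365281 on the minus strand, and *Alas2* (NCBI gene 11656) at chrX:150547417-150570622 on the plus strand. Each of the 4 globin transcripts of GENCODE M21 has 3 exons, with a coding length of 429 bases in the alpha genes and 444 bases in the beta genes.

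The copies of each globin are nearly the same in sequence, which matters for how reads were divided between them. The coding sequences of *Hba-a1* and *Hba-a2* differ at 1 of 429 bases (C381T, counted from 1 at the first base of the start codon, with the base of *Hba-a1* first), an identity of 99.8%. *Hbb-bs* and *Hbb-bt* differ at 1 of 444 bases (C417T, with the base of *Hbb-bs* first), an identity of 99.8%. The stretches of 60 bases around these positions are shown 5′ to 3′ with the differing base in capitals, from base 361 to base 420 of the alpha coding sequence and from base 385 to base 444 of the beta coding sequence, as in GENCODE M21.
Hba-a1: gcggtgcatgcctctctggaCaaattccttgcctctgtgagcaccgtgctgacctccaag
Hba-a2: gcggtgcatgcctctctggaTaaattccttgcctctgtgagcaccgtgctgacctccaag
Hbb-bs: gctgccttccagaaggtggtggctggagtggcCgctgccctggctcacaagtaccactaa
Hbb-bt: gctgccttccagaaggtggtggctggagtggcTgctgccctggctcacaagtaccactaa
Of all 50-base windows of the *Hba-a1* coding sequence, 87.1% were also found in *Hba-a2*, and of those of *Hbb-bs* 92.9% were also found in *Hbb-bt*. Over the whole transcripts of GENCODE M21 the untranslated ends add differences. Of the windows there, 67.5% of those of *Hba-a1* and 86.9% of those of *Hba-a2* were shared with the other copy. The same shares were 65.8% for *Hbb-bs* and 58.3% for *Hbb-bt*. These transcripts have 699 bases for *Hba-a1* and 554 for *Hba-a2*, and 628 for *Hbb-bs* and 703 for *Hbb-bt*. The authors divided the reads on their own set of coding genes, which was not compared with these transcripts. The shares over whole transcripts therefore need not be those that applied to these reads. A fragment from a shared window was divided between the copies by estimation, so the sum of a pair is firmer than the level of either copy. No 50-base window was shared between *Hba-a1* and *Hbb-bs*, so the division of reads does not touch the balance of alpha against beta chains in that way.

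The promoters of the genes that varied together between libraries are shown because erythroid genes are known to be driven by GATA1, which binds GATA-type motifs, and by KLF1, which binds CACCC-type motifs. The 250 bases before the start of each gene in RefSeq on GRCm38.p6 are written 5′ to 3′ on the strand of the gene. GENCODE M21, used for the transcripts above, begins *Hba-a1* at chr11:32283511 and *Hbb-bs* at chr7:103828096, inside these windows. Part of those windows therefore lies within the gene in that annotation, and distances below are counted from the RefSeq start. Capitals mark matches, on either strand, to the GATA-type letters AGATAA, with T also accepted as the first base and G as the last, and to the CACCC-type letters CCACCC, with the longer form CACACCC also accepted. Matches of these types can overlap each other. They span chr11:32283422-32283671, chr11:32296242-32296491, chr7:103827929-103828178, chr7:103813924-103814173 and chrX:150547167-150547416, in the order printed. *Slc4a1* had no entry in the promoter table used.
Hba-a1: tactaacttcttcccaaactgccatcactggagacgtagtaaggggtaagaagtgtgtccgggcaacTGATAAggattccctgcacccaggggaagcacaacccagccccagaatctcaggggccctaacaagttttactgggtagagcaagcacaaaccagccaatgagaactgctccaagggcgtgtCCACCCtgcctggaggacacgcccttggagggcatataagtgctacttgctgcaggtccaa
Hba-a2: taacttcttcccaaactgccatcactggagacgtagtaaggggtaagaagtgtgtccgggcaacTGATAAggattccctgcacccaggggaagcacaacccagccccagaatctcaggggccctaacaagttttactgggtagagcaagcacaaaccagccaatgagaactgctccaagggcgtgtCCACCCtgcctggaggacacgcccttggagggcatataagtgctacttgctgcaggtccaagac
Hbb-bs: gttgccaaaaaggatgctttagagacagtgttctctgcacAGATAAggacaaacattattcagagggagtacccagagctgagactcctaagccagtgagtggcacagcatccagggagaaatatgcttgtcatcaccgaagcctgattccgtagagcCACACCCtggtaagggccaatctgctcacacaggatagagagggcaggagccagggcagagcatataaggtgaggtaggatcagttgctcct
Hbb-bt: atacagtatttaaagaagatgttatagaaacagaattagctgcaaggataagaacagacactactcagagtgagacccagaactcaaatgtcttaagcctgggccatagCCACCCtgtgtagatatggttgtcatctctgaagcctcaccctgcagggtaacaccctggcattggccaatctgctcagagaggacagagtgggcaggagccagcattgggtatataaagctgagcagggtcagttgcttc
Alas2: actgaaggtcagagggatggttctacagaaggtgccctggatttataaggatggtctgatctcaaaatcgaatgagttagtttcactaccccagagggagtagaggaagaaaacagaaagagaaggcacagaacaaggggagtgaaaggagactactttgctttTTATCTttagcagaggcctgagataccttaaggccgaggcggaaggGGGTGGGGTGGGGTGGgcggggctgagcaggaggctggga
Shifted by 3 bases against each other, the promoters of *Hba-a1* and *Hba-a2* were equal at 247 of 247 bases. Those of *Hbb-bs* and *Hbb-bt* were equal at 127 of 249 bases at a shift of 1 base. No gaps were allowed in this comparison, so inserted or lost bases put the rest out of step. The count therefore does not measure how alike these promoters are. A GATA-type match began 183 bases before the start in *Hba-a1*, 186 in *Hba-a2* and 210 in *Hbb-bs*, and 86 bases before the start of *Alas2* on the opposite strand. These letters were not in the window of *Hbb-bt*. CACCC-type matches were in all 5 promoters, as far as 141 bases from the start in *Hbb-bt* and with 3 overlapping matches in *Alas2*. A TATA-type match (the letters ATATAA, or in their place CATAAA, on the strand of the gene) began 28 to 31 bases before the start of the 4 globin genes and was not in the window of *Alas2*. The letters CCAAT, on either strand, were in the 4 globin promoters and not in that of *Alas2*. Among 27025 mouse promoters of the same length, 27.1% held a GATA-type match, 32.2% a CACCC-type match, 6.97% both, 34.5% CCAAT and 11.5% a TATA-type match. A match describes letters and does not show binding.

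Alpha globin RNA was abundant in every library and was highest in the library numbered 1 of each genotype. *Hba-a2* had 37375, 3891 and 7553 estimated counts in WT and 31529, 4633 and 6554 in *Npr1+/-* aortas. *Hba-a1* had 26251, 2523 and 5957 counts in WT and 22036, 3076 and 4052 in *Npr1+/-* aortas. In each genotype the library numbered 1 was far above the other 2, and the genotypes overlapped. Scaled to library size with TMM normalization, *Hba-a2* was at 1144 ± 1374 CPM in WT and 986 ± 1094 CPM in *Npr1+/-* (mean ± SD, n = 3 each), with a log2 fold change of -0.22 (SE 1.10). *Hba-a1* was at 813 ± 960.0 CPM in WT and 674 ± 777 CPM in *Npr1+/-*, with a log2 fold change of -0.27 (SE 1.12). The SD of each genotype was larger than its mean, and the differences between the genotypes were smaller than the SD.

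The beta globins followed the same libraries. *Hbb-bs*, the more abundant adult beta gene, had 33687, 3340 and 6700 counts in WT and 29797, 3639 and 5481 in *Npr1+/-* aortas. *Hbb-bt*, the less abundant copy, had 5099, 399.6 and 857 counts in WT and 3929, 514 and 824 in *Npr1+/-* aortas. Again the libraries numbered 1 were the highest of their genotype and the genotypes overlapped. *Hbb-bs* was at 1026 ± 1244 CPM in WT and 901 ± 1061 CPM in *Npr1+/-*, with a log2 fold change of -0.19 (SE 1.15). *Hbb-bt* was at 150.0 ± 193 CPM in WT and 122 ± 137 CPM in *Npr1+/-*, with a log2 fold change of -0.30 (SE 1.17).

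*Alas2* went with the globins at a lower level. Its counts were 1100, 70 and 194 in WT and 906, 108 and 148 in *Npr1+/-* aortas, or 32.2 ± 41.8 and 26.9 ± 32.6 CPM, with a log2 fold change of -0.26 (SE 1.22). *Slc4a1*, with 110, 4 and 4 counts in WT and 28, 5 and 6 in *Npr1+/-* aortas, was the only gene of the 6 that failed the filter on low counts. Outside WT 1 and *Npr1+/-* 1 it was near the limit of detection, since a count of 4 has an exact Poisson interval from 1.09 to 10.2. Of the 6 genes in the table, 5 passed this filter and entered the edgeR fit, and no test result is read for these 5. Over all 13938 genes tested, 0% were called by edgeR (adjusted p under 0.05, with a log2 fold change of 0.5 or more in either direction). The median log2 fold change of the 5 genes was -0.26 beside 0.01 over all genes tested.

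**Figure D1:**
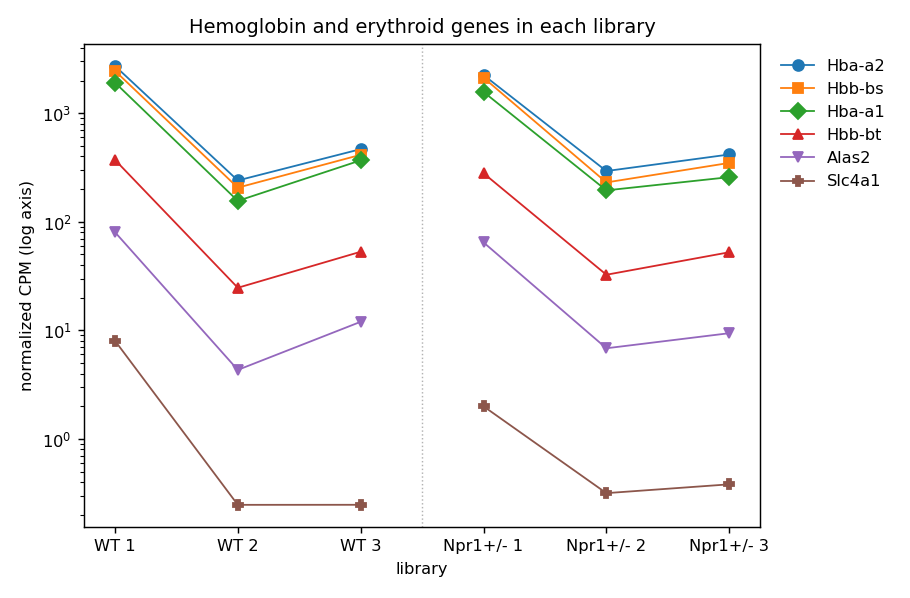
Normalized CPM (log axis) of the 6 hemoglobin and erythroid genes in each of the 6 libraries, with lines that join the values of a gene within a genotype for the eye only. All 6 genes were highest in WT 1 and in *Npr1+/-* 1, with *Hba-a2* at 2726 and 2247 CPM there and *Alas2* at 80.2 and 64.6 CPM.

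Per length of transcript, *Hba-a2* had the highest level in every library, from 459 FPKM in WT 2 to 5157 FPKM in WT 1. *Hbb-bs* was next in all libraries but WT 3, from 344 to 4062 FPKM, and *Hba-a1* ranged from 300 to 3650 FPKM. In WT 3 the order of these neighbours was turned, with 673 FPKM for *Hba-a1* and 657 FPKM for *Hbb-bs*. *Hbb-bt* ranged from 41.8 to 624 FPKM, *Alas2* from 2.29 to 41.3 FPKM and *Slc4a1* from 0.05 to 1.77 FPKM. Between libraries the levels of *Hba-a2*, *Hbb-bs* and *Hba-a1* overlapped widely, with 2154 ± 2608, 1688 ± 2062 and 1541 ± 1836 FPKM in WT and 1803 ± 1966, 1438 ± 1667 and 1242 ± 1407 FPKM in *Npr1+/-*. Their order therefore rests on comparison within a library. In each library *Hbb-bt*, *Alas2* and *Slc4a1* followed in this order.

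Together the 4 globin genes took 0.758%, 0.0640% and 0.126% of all counts in WT and 0.604%, 0.0743% and 0.110% in *Npr1+/-* aortas. Summed globin was at 7469, 627 and 1301 CPM in WT and at 6221, 751 and 1075 CPM in *Npr1+/-*, so the highest library was 11.9 times the lowest, and these were libraries of the same genotype. The log2 ratio of the means of *Npr1+/-* over WT was -0.22, beside an SD within genotypes of 1.74 on the log2 scale. Between libraries of the same number, *Npr1+/-* over WT was 0.833 for number 1, 1.2 for number 2 and 0.826 for number 3. In whole tissue, fewer cells of a type and less RNA per cell cannot be told apart.

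The direction of the difference between genotypes turned with the libraries used. Without WT 1 the log2 ratio of summed globin was 1.48, and without *Npr1+/-* 1 it was -1.78. It was also turned by leaving out *Npr1+/-* 2 (0.22) or *Npr1+/-* 3 (0.15), and it was -0.71 without WT 2 and -0.59 without WT 3. Without both libraries numbered 1, a comparison chosen after seeing the data, it was -0.08. The log2 fold changes of single genes behaved likewise, from -1.88 to 1.36 for *Hba-a1*, -1.73 to 1.48 for *Hba-a2* and -1.86 to 1.54 for *Hbb-bs*. For *Hbb-bt* they ran from -1.86 to 1.64 and for *Alas2* from -2.02 to 1.72. In all 5 genes the lowest value was found without *Npr1+/-* 1 and the highest without WT 1.

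**Figure D2:**
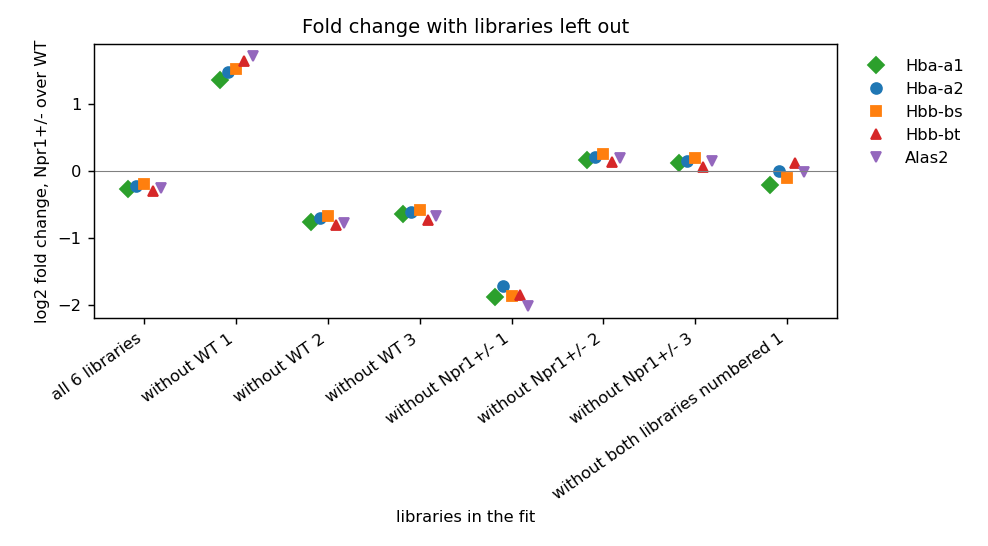
Log2 fold change of *Npr1+/-* over WT from edgeR for the 5 genes that passed the filter (vertical axis), with all 6 libraries and with the libraries named on the horizontal axis left out. The values lie from 1.36 to 1.72 without WT 1 and from -2.02 to -1.73 without *Npr1+/-* 1, and near 0 without both.

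The ratio of the chains varied far less between libraries than their level did. Alpha over beta globin counts were 1.64, 1.71 and 1.79 in WT and 1.59, 1.86 and 1.68 in *Npr1+/-* aortas. The means were 1.71 ± 0.0736 in WT and 1.71 ± 0.136 in *Npr1+/-* (SD, n = 3 each). Over all 6 libraries the highest ratio was 1.17 times the lowest, with a coefficient of variation of 5.72%, beside 106% for summed globin CPM. Per length, from FPKM, the ratio was 1.88, 1.97 and 2.05 in WT and 1.82, 2.13 and 1.93 in *Npr1+/-*, or 1.96 ± 0.0848 and 1.96 ± 0.156. The log2 ratio of the genotype means was -0.0046 in counts, beside an SD within genotypes of 0.0916, and ran from -0.068 to 0.045 as libraries were left out in turn. In both genotypes the library numbered 1, with the most globin, had the lowest ratio of alpha to beta.

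The alpha share of globin counts had a 95% Wilson interval of 61.8% to 62.4% in WT 1 and of 61.0% to 61.7% in *Npr1+/-* 1, beside 64.1% to 65.8% in *Npr1+/-* 2. The intervals of these libraries did not overlap, in a ratio whose total range was small. These intervals cover counting error only and take each read as an independent molecule. Reads without molecular identifiers are not, so the intervals may be too narrow and are not read as a test.

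Within the alpha pair, *Hba-a2* held 58.7%, 60.7% and 55.9% of the counts in WT and 58.9%, 60.1% and 61.8% in *Npr1+/-* aortas. The Wilson interval was 55.1% to 56.7% in WT 3 and 60.9% to 62.7% in *Npr1+/-* 3, while the shares of the genotypes overlapped. These intervals take the estimated counts of each copy as observed, so they are too narrow where most fragments were divided by estimation. Within the beta pair, *Hbb-bs* held 86.9%, 89.3% and 88.7% of the counts in WT and 88.4%, 87.6% and 86.9% in *Npr1+/-* aortas. The genotypes overlapped in this share too. Both shares rest on the division of reads between the near-identical copies shown above, and the effect of that division was not tested.

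**Figure D3:**
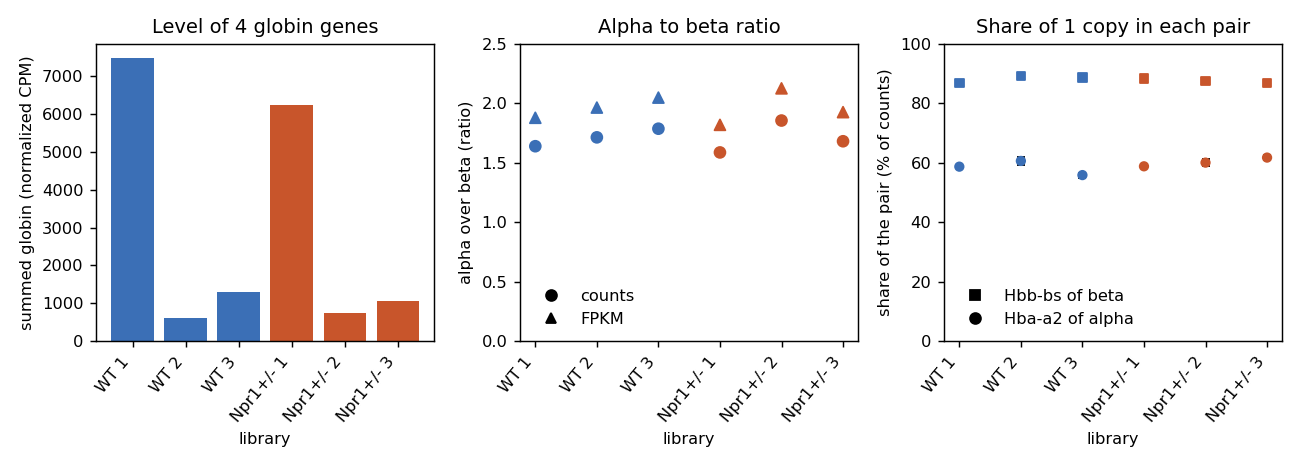
Left, summed normalized CPM of the 4 globin genes in each library; middle, the ratio of alpha to beta globin from counts (circles) and FPKM (triangles); right, the share of *Hbb-bs* in beta counts (squares) and of *Hba-a2* in alpha counts (circles), with 95% Wilson intervals mostly hidden by the symbols. Blue is WT and orange *Npr1+/-*. Summed globin ranged 11.9-fold, while the ratio from counts stayed between 1.59 and 1.86.

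Other erythroid transcripts were set against globin within each library. *Alas2* counts per 1000 globin counts were 10.7, 6.89 and 9.21 in WT and 10.4, 9.10 and 8.75 in *Npr1+/-* aortas. *Slc4a1* was at 1.07, 0.394 and 0.190 per 1000 in WT and at 0.321, 0.422 and 0.355 per 1000 in *Npr1+/-*. *Alas2* kept its proportion to globin within a range of 1.56-fold over the 6 libraries, and *Slc4a1* ranged 5.66-fold. The libraries numbered 1 had nearly the same globin, yet WT 1 had 110 *Slc4a1* counts (exact Poisson interval 90.4 to 133) and *Npr1+/-* 1 had 28 (18.6 to 40.5).

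The libraries numbered 1 were compared with the other libraries of their genotype for each gene. *Hbb-bs* in WT 1 was 11.9 times its level in WT 2 and 5.94 times that in WT 3, and in *Npr1+/-* 1 it was 9.22 times its level in *Npr1+/-* 2 and 6.10 times that in *Npr1+/-* 3. *Hba-a2* showed 11.4-fold and 5.84-fold in WT and 7.66-fold and 5.39-fold in *Npr1+/-*. *Alas2* showed 18.6-fold and 6.69-fold in WT and 9.45-fold and 6.86-fold in *Npr1+/-*. *Slc4a1* was 32.5 times its level in each of the other WT libraries, which rests on 4 counts in each of them. Of the 13938 genes tested, 10 to 24 lay above the 5 erythroid genes in the log2 difference of WT 1 from the mean of WT 2 and WT 3. In the same difference for *Npr1+/-* 1, 42 to 76 genes lay above them. All 5 were highest in both libraries numbered 1, as were 3336 of the 13938 genes tested (23.9%). The median log2 difference of the 5 genes was 3.07 in WT and 2.81 in *Npr1+/-*, beside -0.01 and -0.01 over all genes tested.

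Markers of several other cell types moved in the same libraries. Of the brown fat markers, 7 of 7 were highest in both libraries numbered 1, with a median log2 difference of 2.62 in WT and 1.86 in *Npr1+/-*. *Ucp1*, the uncoupling protein of brown fat, had 811, 90.4 and 186 FPKM in WT and 830, 230 and 260 FPKM in *Npr1+/-*, although the 2 brown fat markers of highest level were *Cox8b* and *Cidea*, with 1339 and 845 FPKM in WT 1. The summed brown fat level ranged from 541 to 3576 FPKM in WT and from 1046 to 3528 FPKM in *Npr1+/-*.

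Blood cell markers were in part higher in these libraries. Of the platelet markers, 7 of 10 were highest in both libraries numbered 1, and their sum ranged from 50.3 to 148 FPKM in WT and from 34.1 to 109 FPKM in *Npr1+/-*. The chemokines *Pf4* and *Ppbp*, stored in platelet granules, led this list, with 49.5 and 43.9 FPKM in WT 1. Of the macrophage markers, 8 of 8 were highest in both, led by *Lyz2* with 195 FPKM and *C1qa* with 85.7 FPKM in WT 1, and their sum ranged from 160 to 413 FPKM in WT and 202 to 284 FPKM in *Npr1+/-*. The neutrophil sum ranged from 5.00 to 41.6 FPKM in WT and from 7.42 to 16.1 FPKM in *Npr1+/-*, with *Cxcr2* and *S100a9* as its leading genes, and 7 of its 9 genes in the table failed the filter on low counts. The sums of B cell markers (24.3 to 28.6 FPKM) and T cell markers (1.66 to 6.78 FPKM) over the 6 libraries were led by *Ebf1* and *Cd79a* and by *Cd247* and *Cd2*, and 1 of 3 and 0 of 1 tested genes were highest in both libraries numbered 1.

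Among markers of the vessel wall, those of smooth muscle went the other way, and those of endothelium differed less than the globins. All 8 smooth muscle markers were lowest in both libraries numbered 1, as were 3356 of the 13938 genes tested. The sum of these markers was 8498 FPKM in WT 1 and 4956 FPKM in *Npr1+/-* 1 beside 13438 to 14941 FPKM in the other 4 libraries. *Tagln*, like *Acta2* a gene of the contractile apparatus, was at 2771 and 1456 FPKM in the libraries numbered 1. Endothelial markers, led by *Pecam1* and *Cdh5*, summed to 137 to 220 FPKM in WT and 261 to 365 FPKM in *Npr1+/-*. Of these markers, 2 of 8 were highest in both libraries numbered 1. The median log2 difference of the 8 was 0.36 in WT and 0.72 in *Npr1+/-*, in the direction of the globins but smaller. Cardiomyocyte markers, led by *Tnnt2* and *Actn2*, summed to 17.2 to 28.2 FPKM over all libraries. Neuron markers were high in *Npr1+/-* 1 alone, at 334 FPKM in sum beside 67.9 to 82.1 FPKM in the others, with *Dbh*, an enzyme of noradrenaline synthesis, at 56.2 FPKM there and at most 0.25 FPKM elsewhere. *Uchl1*, the neuron marker of highest mean level, stayed between 61.9 and 98.9 FPKM. The part of these cell types in the globin levels was not tested.

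**Figure D4:**
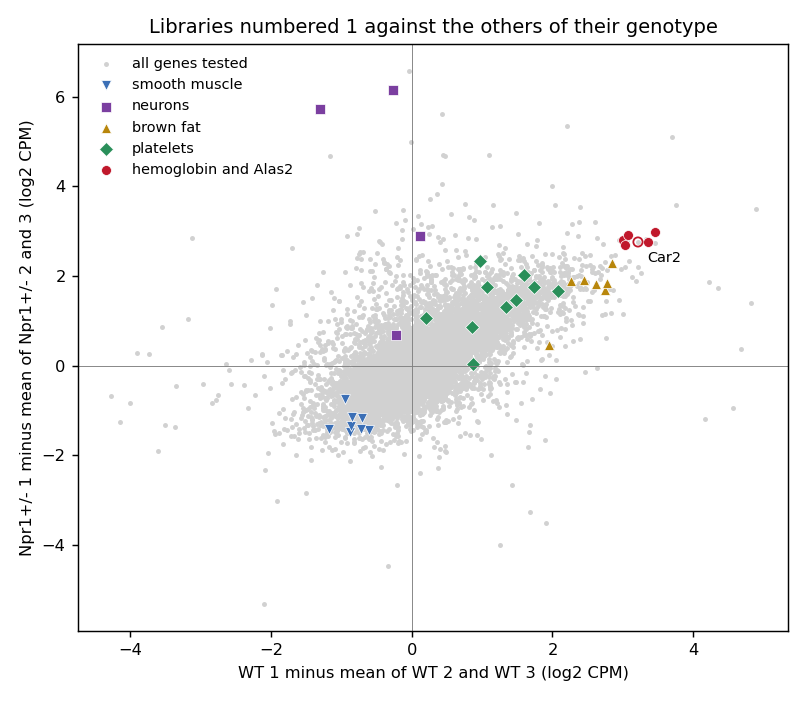
Each point is a gene tested. The horizontal axis is the log2 CPM of WT 1 minus the mean of WT 2 and WT 3, and the vertical axis is the same difference for *Npr1+/-* 1. The 4 hemoglobin genes and *Alas2* (red) lie near 3 on both axes with *Car2* (open red circle), brown fat markers (triangles) and platelet markers (green diamonds) lie above 0 on both, smooth muscle markers (blue) lie below 0 on both, and 3 of 4 neuron markers (squares) are high on the vertical axis only.

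**Figure D5:**
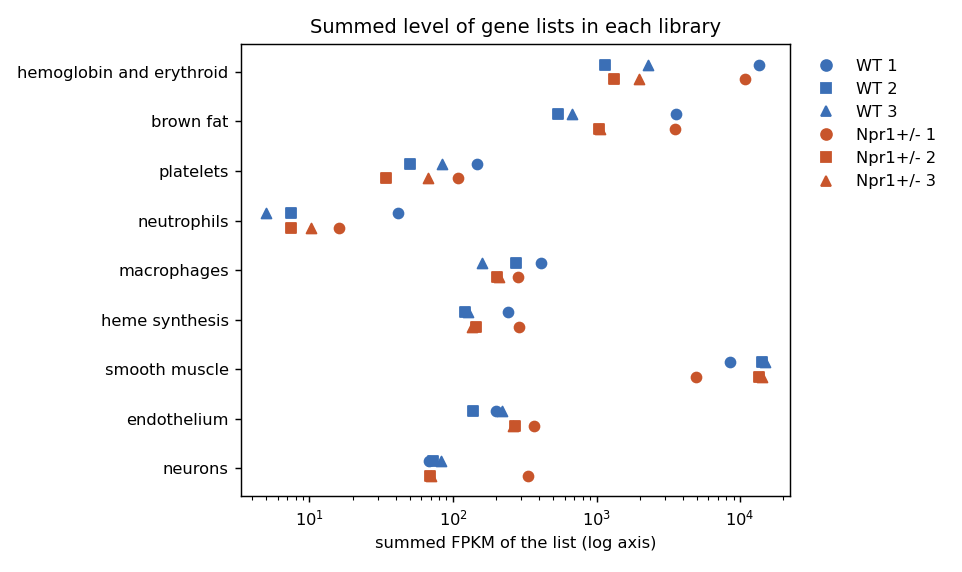
Summed FPKM of gene lists (log axis) in each library, with WT in blue, *Npr1+/-* in orange and the library number given by the symbol. Hemoglobin and erythroid genes summed to 13536 FPKM in WT 1 and 10775 FPKM in *Npr1+/-* 1 and to 1146 to 2269 FPKM in the other 4 libraries.

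The genes closest to the globins were found by the correlation of log2 CPM with the mean of the 4 globin genes over the 6 libraries, among 4910 genes whose log2 CPM spanned at least 1. Among the 8 closest were *Ptdss2* (Pearson's r = 0.997), *Cpn2* (0.997), *Abhd6* (0.995), *Ahcyl1* (0.993), *Ganc* (0.991) and *Car2* (0.99). *Car2*, a carbonic anhydrase of red cells and other tissues, had 9.11, 0.75 and 1.04 FPKM in WT and 6.06, 0.57 and 1.27 FPKM in *Npr1+/-*. *Car2* had been listed as a reticulocyte gene, and its span over the libraries of 3.76 was near the 3.65 of the globins. The span of *Cpn2* was 2.52, and those of *Ptdss2*, *Abhd6*, *Ahcyl1* and *Ganc* were 1.08 to 1.22. Of the 4910 genes, 698 had r above 0.9 and 139 spanned at least as much as the globins. The 6 points share the split of the libraries numbered 1 from the rest, so the correlations are a description.

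Genes of the red cell, of heme and of iron outside the set were read from lists of 75 genes, of which 73 were in the table and 53 were tested. In the comparison of genotypes 0 of the 53 were called by edgeR, with a smallest adjusted p of 0.999, and 4 had an unadjusted p under 0.05. DESeq2, run without the filter on low counts, called 0 of the 73 in the table, with 5 at an unadjusted p under 0.05. By edgeR the 53 genes had a median log2 fold change of 0.02, and 27 were positive. Over all genes edgeR called 0 of 13938, with 412 at an unadjusted p under 0.05. DESeq2 called 16 of the 16979 genes to which it gave an adjusted p (0.0942%). Of the 53 genes, 8 had CPM values that did not overlap between the genotypes, beside 7.48% of all genes tested.

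Other globins were mostly low or did not go with hemoglobin. *Cygb*, cytoglobin, had 74.7, 96.1 and 72.1 FPKM in WT and 55.9, 76.4 and 101 FPKM in *Npr1+/-*, and its Pearson's r with the globins was -0.71. *Mb*, the myoglobin of muscle, had 5.62, 1.00 and 0.41 FPKM in WT and 1.90, 0.73 and 0.34 FPKM in *Npr1+/-*. *Ngb*, neuroglobin, was at 0.41 to 1.10 FPKM in WT and at 1.18 to 2.62 FPKM in *Npr1+/-* without overlap, with a log2 fold change of 1.32 (SE 0.50) and an adjusted p of 0.999 by edgeR. *Hbb-bh2* stayed between 1.17 and 2.09 FPKM. The embryonic gene *Hbb-y* and the genes *Hbb-b2* and *Hbq1a* were under 3 counts in every library. *Hbb-b1*, an adult beta gene of another mouse haplotype, had 6.67 counts in WT 3 and 7.21 in *Npr1+/-* 2 and was listed at 0 in the other 4 libraries.

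Red cell membrane genes were led by *Tmod1* (15.4 to 26.9 FPKM), *Dmtn* (14.0 to 30.1 FPKM), *Epb41* (14.2 to 23.6 FPKM) and *Gypc* (12.1 to 24.3 FPKM), which cap, bundle or anchor the membrane skeleton and are also transcribed outside red cells. Of the 17 listed, 9 were tested, 3 of these 9 were highest in both libraries numbered 1, and the summed level ranged only from 77.8 to 102 FPKM. *Epb42*, the protein 4.2 that binds band 3, had a log2 fold change of -0.65 (SE 0.39), without overlap in CPM and with an adjusted p of 0.999 by edgeR. *Kel* was under 3 counts in every library. *Rhd* also did not overlap, with 2 to 3 counts in WT and 0 to 1 in *Npr1+/-*, which is at the limit of detection. Of the 10 erythroid transcription factors listed, 4 were tested. *Klf1* and *Hemgn* had under 3 counts in every library, and *Gata1* had at most 4.

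The transcription factors of highest level were *Zfpm1*, the GATA cofactor FOG1, and *Tal1*, which endothelial cells also use. *Zfpm1* had 5.06, 5.09 and 6.03 FPKM in WT and 8.42, 7.26 and 6.28 FPKM in *Npr1+/-*, a log2 fold change of 0.48 (SE 0.18). *Tal1* had 1.83, 1.16 and 1.33 FPKM in WT and 2.27, 2.02 and 2.23 FPKM in *Npr1+/-*, a log2 fold change of 0.61 (SE 0.22). Neither overlapped between the genotypes, and both had an adjusted p of 0.999 by edgeR. In the same libraries the summed endothelial level did not overlap either, and its part in these values was not tested. *Epor*, the erythropoietin receptor, and *Nfe2* followed, with 0.24 to 1.31 FPKM and 0.26 to 1.14 FPKM.

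Genes kept in reticulocytes were led by *Prdx2*, a peroxidase, with 68.7 to 104 FPKM, *Bnip3l*, a receptor for the clearance of mitochondria, with 28.5 to 43.1 FPKM. *Bpgm*, which makes the phosphoglycerate that lowers the oxygen affinity of hemoglobin, had 26.6, 11.2 and 11.7 FPKM in WT and 22.5, 12 and 11.1 FPKM in *Npr1+/-*, and its r with the globins was 0.975. *Mkrn1* followed in mean level, with 11.8 to 17.2 FPKM. Of the 10 tested, 6 were highest in both libraries numbered 1, with median log2 differences of 0.37 in WT and 0.41 in *Npr1+/-*, far below those of the globins. *Trim58*, a ubiquitin ligase of late erythroblasts, had 0.84, 1.84 and 0.93 FPKM in WT and 0.50, 0.51 and 0.51 FPKM in *Npr1+/-*, without overlap. Its log2 fold change of -1.23 (SE 0.39) had an adjusted p of 0.999 by edgeR.

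Most heme synthesis genes had their highest level in the libraries numbered 1, with smaller differences than the globins. Of 8 tested, 6 were highest in both and *Cpox* was lowest in both, and the median log2 differences were 0.87 in WT and 0.78 in *Npr1+/-*. *Alas1*, the form of the enzyme used outside red cells, had 72.7, 20.2 and 24.4 FPKM in WT and 112, 37.8 and 21.0 FPKM in *Npr1+/-*, above *Alas2* in every library. *Alad*, the next enzyme, had 31.4, 12.6 and 11.9 FPKM in WT and 42.6, 16.8 and 15.6 FPKM in *Npr1+/-*. *Urod* ranged from 23.6 to 42.8 FPKM and *Fech*, which inserts the iron, from 19.8 to 35.8 FPKM. *Cpox* had 6.97, 8.93 and 9.99 FPKM in WT and 7.19, 9.30 and 8.83 FPKM in *Npr1+/-*, and *Ppox* ranged from 18.1 to 23.3 FPKM. No heme synthesis gene was without overlap between the genotypes, and their log2 fold changes ran from -0.09 to 0.58.

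Among the genes that clear heme and hemoglobin, *Hp*, the haptoglobin that binds free hemoglobin and is also made by fat, had 538, 102 and 97.4 FPKM in WT and 609, 169 and 148 FPKM in *Npr1+/-* aortas. *Slc48a1*, a heme transporter, had 90.6, 89.7 and 95.8 FPKM in WT and 63.7, 85.0 and 89.9 FPKM in *Npr1+/-*, which overlapped in FPKM though not in CPM. *Lrp1*, the receptor of the heme and hemopexin complex among many ligands, had 59.5, 70.8 and 69.4 FPKM in WT and 44.1, 52.8 and 55.0 FPKM in *Npr1+/-*. The log2 fold changes were -0.20 (SE 0.17) for *Slc48a1* and -0.39 (SE 0.21) for *Lrp1*, each with an adjusted p of 0.999 by edgeR. *Blvrb*, a biliverdin reductase, ranged from 27.6 to 51.1 FPKM. Of the 10 genes tested, 7 were highest in both libraries numbered 1.

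Iron genes were dominated by ferritin, with *Fth1* between 3562 and 4416 FPKM and *Ftl1* between 482 and 1224 FPKM. *Aco1*, which controls iron-responsive mRNAs, ranged from 15.1 to 47.8 FPKM, and *Steap3*, a ferric reductase, from 11.5 to 17.1 FPKM. *Tfrc*, the transferrin receptor through which erythroblasts take up iron, had 3.56, 2.98 and 2.98 FPKM in WT and 2.69, 2.83 and 2.83 FPKM in *Npr1+/-*. It did not overlap between the genotypes, with a log2 fold change of -0.18 (SE 0.14) and an adjusted p of 0.999 by edgeR. In WT 1 and *Npr1+/-* 1, where globin was highest, *Tfrc* was the highest of its genotype in WT and the lowest in *Npr1+/-* in FPKM.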

How the data were processed

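Aortic RNA was sequenced in 6 libraries on the BGISEQ-500 platform. The authors filtered the reads, aligned them to coding genes with Bowtie2 and estimated expression with RSEM (mm10 and DESeq2 1.4.5 are also named in the submitters' processing notes). The deposited estimated counts are not normalized, and the deposited FPKM are scaled by the authors for transcript length and library size. The authors' 4 columns of genotype means were not used.

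Estimated counts were rounded and tested with R 4.3.3 and edgeR 4.0.16 (TMM normalization, a minimum count of 10, the quasi-likelihood test and Benjamini-Hochberg adjustment over 13938 genes). Genes were matched by NCBI identifier, and 18070 of 18191 had a symbol. Log2 CPM used a prior count of 2. DESeq2 1.42.0, its size factors, no filter on low counts, limma 3.58.1 on log2(FPKM + 0.1) (mean FPKM at or above 0.1), a replicate block, and leaving out libraries were alternatives. Tests were checked on simulated data with large changes between the genotypes and no split of the libraries numbered 1. The check therefore does not show what the tests find for small changes in these libraries. Shares have 95% Wilson intervals.

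The members and lists were chosen with earlier results of these data known. The genes named were all members, up to 4 genes of highest mean FPKM per pathway list with those without overlap, 2 genes per marker list, and the 8 genes most like the globins, of which some are not reported here. *Car2*, *Cpox*, *Ppox*, *Ucp1*, *Dbh*, the neutrophil genes and genes under 3 counts were named after their values were seen where this rule did not give them. Same-numbered libraries, paired by the labels' numbers alone, deviated together from their genotype means (r of 0.64, 0.39 and 0.24), but pairs of different numbers ranged from -0.58 to 0.44, and WT 3 with *Npr1+/-* 2 (0.44) and WT 2 with *Npr1+/-* 3 (0.37) were above the same-numbered pair 3.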

Additional observations from a re-analysis of the deposited data

How the results depend on the processing

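Between genotypes, edgeR called 0 of 13938 genes (412 at an unadjusted p under 0.05), and 0 with any library left out (0 to 0). DESeq2 in place of edgeR called 16 of 16979, and 1 gene was called by edgeR without both libraries numbered 1, an alternative chosen after seeing the data. The cause was not tested. With the replicate block, which uses the pairing of libraries by number, 0 genes were called (1735 at an unadjusted p under 0.05). Of the genes of the red cell, heme and iron lists, 0 were called with it. For the globin sums no block was fitted, and the log2 ratios of *Npr1+/-* over WT within each number were averaged. These means were -0.093 for summed globin and -0.0067 for alpha over beta globin. The main values are log2 ratios of genotype means, so the difference from them is not an effect of the pairing. The block changed no call. The lists stayed at 0 calls under all alternatives run (0 to 0 over the left-out libraries). The log2 ratio of summed globin ran from -1.78 to 1.48 over the left-out libraries, and that of alpha over beta from -0.068 to 0.045. With the size factors of DESeq2 summed globin was at -0.23, and with summed FPKM at -0.27. Of 60 fold changes of the hemoglobin genes and *Alas2* under the alternatives, 58 moved by less than 1 SD of log2 CPM within genotypes. *Hbb-bt* (1.64) and *Alas2* (1.72) moved by more without WT 1. This SD is wide because it includes the libraries numbered 1, so the count does not show stable fold changes. *Hba-a1* turned from -0.27 to 1.36 without WT 1 and still moved by less than 1 SD. The log2 ratio of summed globin lies within the spread of 1.74 between libraries of a genotype, a spread that does not take the library numbers into account. *Slc4a1* is limited by counts under 10 in 4 libraries.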

Other observations

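Some neutrophil genes, picked after their values were seen, differed between the libraries numbered 1 in the same direction as *Slc4a1*, and others of the list did not. *S100a9*, a calcium-binding protein of neutrophils, had 106 counts in WT 1 and 32 in *Npr1+/-* 1, and at most 4 in the other libraries. *S100a8*, its partner, had 55 counts in WT 1 and 19 in *Npr1+/-* 1. *Retnlg* had 37.0 counts in WT 1 and 3 in *Npr1+/-* 1, and *Ngp* had 18 and 0. *Csf3r* went the other way, with 10.2 CPM in WT 1 and 11.5 CPM in *Npr1+/-* 1, and *Cxcr2* was at 12.5 and 10.7 CPM. Summed globin in *Npr1+/-* 1 was 0.833 times that in WT 1, while *Slc4a1* CPM was 0.249 times that in WT 1. The difference between these libraries has no replicate and was not tested.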
